A study of Mus musculus with 7 samples.

Results

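Integrins are receptors of the cell surface that pair an alpha with a beta chain, and laminins are trimers of an alpha, a beta and a gamma chain in basement membranes that many integrins bind. All genes of the single-cell count tables were taken whose symbols are Itga followed by letters or digits, Itgb1 to Itgb8, or Lama, Lamb or Lamc followed by a digit from 1 to 5. This gave 37 of 31253 genes, made up of 18 integrin alpha, 8 integrin beta and 11 laminin genes. The data are 7 single-cell libraries of mouse aorta, 3 labelled Slc38a2flox/flox (here flox control) and 4 labelled Slc38a2deltaEC (here endothelial knockout). The product of Slc38a2, SNAT2, carries small neutral amino acids into cells together with sodium. Both groups ate a high-salt diet for 3 weeks, so neither shows the aorta on normal chow. The labels used here name no Cre driver and do not say whether the libraries came from separate mice, so each p-value rests on the variation among the libraries, of which a share may be technical.

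Cells were assigned to classes by marker genes that include no integrin or laminin gene. The UMIs (unique molecular identifiers, each standing for a captured transcript) of each gene were then summed over the cells of a class in each library. Of 76359 barcodes 67477 were kept, and the gate assigned 1356 endothelial, 19792 smooth muscle, 36314 fibroblast and 3964 macrophage cells. Endothelial cells numbered 113, 168 and 58 in flox controls 1 to 3 and 57, 210, 230 and 520 in knockouts 1 to 4, so the endothelial sums rest on 205905 to 1836422 UMIs. Knockout 4 held 358 smooth muscle cells, against 2096 to 5421 in the other libraries. The labels name goblet cells as the cell type, but 0 cells carried 3 of the 7 goblet markers. Pairs of libraries shared 56 to 171 barcodes, of which 25.74% to 45.88% fell in the same class, against 28.43% to 43.01% for random pairs of cells. In endothelial cells Slc38a2 stood at 457, 389 and 316 CPM in flox controls and 199, 278, 329 and 278 CPM in knockouts, where CPM (counts scaled to the usual fixed total) is taken from the UMIs of that class in that library. The groups overlapped (log2 fold change -0.44 ± 0.22, standard error (SE), edgeR adjusted p = 0.835). The fold change was -0.43 ± 0.19 in macrophages, where all knockouts lay below all flox controls, -0.39 ± 0.27 in fibroblasts and -0.10 ± 0.19 in smooth muscle cells, so the estimate was below 0 in the other classes too. The labels used here do not name the deleted exons, so this level checks nothing about the labels.

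In the vessel wall the endothelium rests on a basement membrane, and smooth muscle cells are wrapped in one. Some integrins hold cells to laminins, others to collagens, and others to proteins such as fibronectin that carry the RGD motif, while the integrins of leukocytes serve adhesion to other cells. Itgb1 pairs with most alpha chains, Itgb2 with alpha chains of leukocytes, and Itgb4 with Itga6.

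Several of these genes stood far higher in 1 of the 4 main classes than in the others. Here and below, the highest and the next class are taken among these 4 classes, and smaller classes are described separately. Itga8 was 58.2-fold higher in smooth muscle cells than in the next class, Itgb4 150.4-fold higher in endothelial cells, Lama2 9.01-fold higher in fibroblasts and Itgam 129.8-fold higher in macrophages. Of the 37 genes 32 had enough counts for a test between the 4 classes, and 23 of them passed when their highest class was compared with the next (edgeR quasi-likelihood test with library as a block, Benjamini-Hochberg adjusted p under 0.05 over 12757 genes). Of all genes tested, 63.1% passed in the same way. Passing were 8 of 8 genes with the highest mean CPM in smooth muscle cells, beside 81.6% of all genes highest there, 7 of 11 in fibroblasts, beside 66.5%, 5 of 6 in macrophages, beside 81.9%, and 3 of 7 in endothelial cells, beside 31.8%. Each gene's 2 classes were picked from the levels that were then tested, so these counts are a description. Itga2b, Itgad, Itgae, Lama1 and Lamb3 were too low for the test.

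Differences between classes were common among all genes, and the counts are read against that background. Between endothelial and smooth muscle cells 23 of the 32 genes passed, beside 59.5% of all genes, and 8 were higher in endothelial cells, beside 28.7%. Between endothelial cells and fibroblasts 27 passed, beside 57.5%, and 14 were higher in endothelial cells, beside 27.6%. Between endothelial cells and macrophages 21 passed, beside 66.3%, and 15 were higher in endothelial cells, beside 35.4%. Between smooth muscle cells and fibroblasts 24 passed, beside 74.8%, and 14 were higher in smooth muscle cells, beside 37.2%. Between smooth muscle cells and macrophages 27 passed, beside 81%, and 19 were higher in smooth muscle cells, beside 44.1%. Between fibroblasts and macrophages 25 passed, beside 75.7%, and 18 were higher in fibroblasts, beside 40.5%. The median absolute log2 difference of the 32 genes was above that of all genes in each of the 6 comparisons, for example 1.82 beside 0.59 between smooth muscle cells and fibroblasts. Fold changes between classes come from the fit, whose scaling shifts endothelial values by -0.30 (log2) against smooth muscle cells, -0.20 against fibroblasts and -0.25 against macrophages relative to plain CPM. CPM is not scaled to transcript length, so levels are compared between classes for 1 gene at a time.

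**Figure D1:**
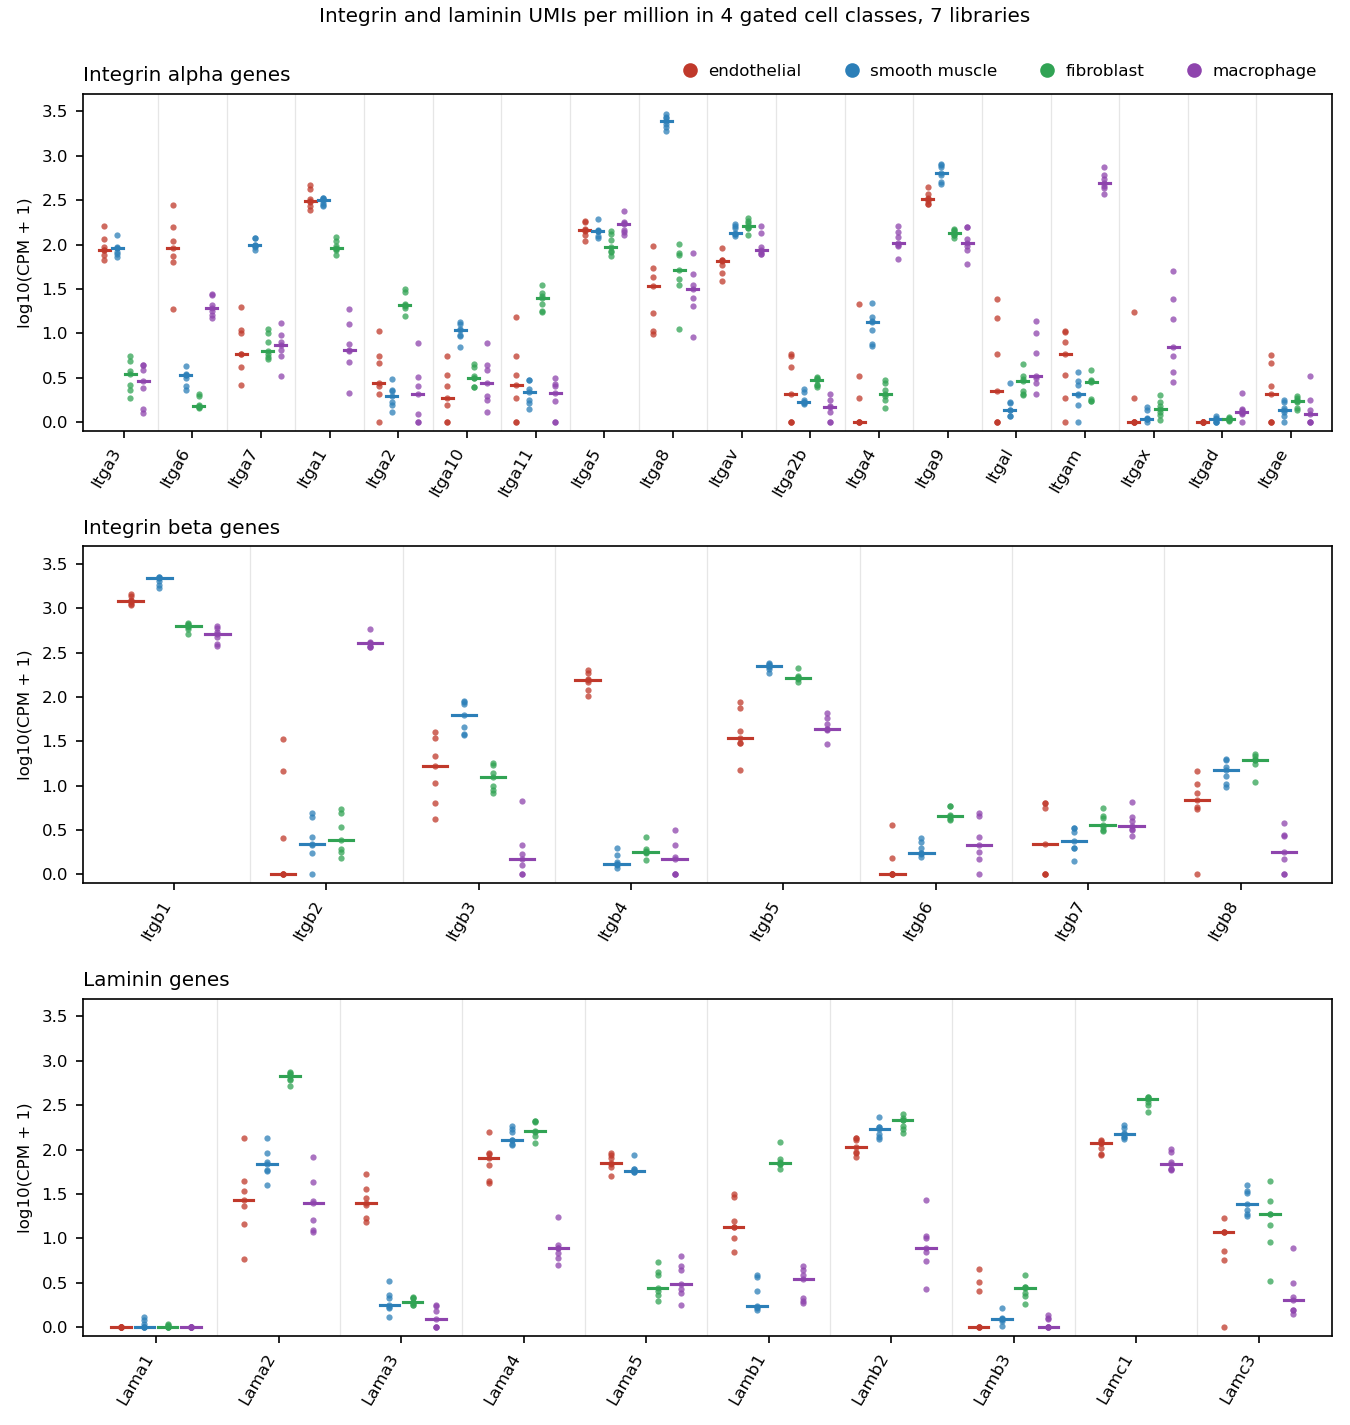
Levels of 36 of the 37 genes in the 4 main cell classes. The vertical axis is log10(CPM + 1), each point is 1 of 7 libraries and each bar the median. Itga8 in smooth muscle cells lies between 1907 and 2991 CPM, and its highest library in the other 3 classes has 101 CPM.

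RefSeq promoter entries of GRCm38.p6 were found for 23 of the 37 genes. The 250 bases before the start are shown for 3 genes with large differences between classes, Itga8 of smooth muscle cells, Itgam of macrophages and Lama2 of fibroblasts. The Itga8 window lies at chr2:12301945-12302194 on the minus strand, that of Itgam at chr7:128062390-128062639 on the plus strand and that of Lama2 at chr10:27616943-27617192 on the minus strand. Capitals mark GAGGAA on either strand (TTCCTC on the other), a sequence bound by the myeloid factor PU.1, and the CArG box, the element bound by serum response factor.
Itga8: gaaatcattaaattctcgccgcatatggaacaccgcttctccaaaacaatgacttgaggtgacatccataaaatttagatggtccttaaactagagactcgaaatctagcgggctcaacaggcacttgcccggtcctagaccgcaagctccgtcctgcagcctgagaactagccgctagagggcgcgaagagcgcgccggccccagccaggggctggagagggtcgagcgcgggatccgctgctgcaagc
Itgam: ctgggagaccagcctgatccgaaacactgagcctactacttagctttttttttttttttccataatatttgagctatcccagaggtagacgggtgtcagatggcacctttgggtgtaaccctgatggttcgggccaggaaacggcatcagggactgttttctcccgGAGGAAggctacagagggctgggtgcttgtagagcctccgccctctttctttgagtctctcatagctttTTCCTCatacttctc
Lama2: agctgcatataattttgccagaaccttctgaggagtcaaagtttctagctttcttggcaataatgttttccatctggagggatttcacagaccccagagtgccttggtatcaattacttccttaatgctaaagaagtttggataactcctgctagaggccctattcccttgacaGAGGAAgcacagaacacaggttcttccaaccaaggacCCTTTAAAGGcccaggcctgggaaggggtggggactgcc
The Itgam window holds GAGGAA 84 and 15 bases before the start, the Lama2 window holds 1 match of each kind, which do not overlap, and the Itga8 window holds neither. The RefSeq start of Lama2 lies inside the span that GENCODE gives for the gene. Of the 26 entries of these genes, 13 held GAGGAA, beside 23.25% of 32851 promoters. The CArG box was in 2 entries, of Lama2 and Itgb6, beside 1.467% of promoters. A match of letters describes the window only.

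Among the alpha chains that bind laminin, Itga6 was highest of the main classes in endothelial cells and Itga7 in smooth muscle cells, while Itga3 was read in both. Itga6 had 18.0, 89.7 and 280.2 CPM (lowest, median and highest library) in endothelial cells and 13.9, 18.2 and 27.0 CPM in macrophages. It was higher in endothelial cells in 7 of 7 libraries, by 2.07 ± 0.27 (log2, SE, edgeR adjusted p = 3.36e-07). With every cell thinned to 1000 UMIs, 5.91% of 1168 endothelial cells had an Itga6 UMI against 0.0567% of 33482 fibroblasts (10.3% and 0.289% before thinning). In macrophages, the next class, the thinned share was 1.58% of 3726 cells (6.69% before thinning), and in T cells 5.58% of 197. In 2 small classes it was higher than in endothelial cells, 20% of 55 lymphatic endothelial cells and 20% of 60 Schwann cells. Itga7, the laminin-binding alpha chain of muscle, ran from 86.3 to 119 CPM in smooth muscle cells, and its highest library in the other main classes had 18.99 CPM. The difference from endothelial cells was 4.32 ± 0.29 (log2, edgeR adjusted p = 1.87e-12). Itga3 stood at 97.3 ± 32.1 CPM (SD, n = 7) in endothelial cells and 90.1 ± 18.3 CPM in smooth muscle cells, with at most 4.54 CPM in fibroblasts and macrophages. The 2 classes did not differ beyond their spread (-0.18 ± 0.23, edgeR adjusted p = 0.527), and the fit and the means have opposite signs.

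The collagen-binding alpha chains were divided among the classes. Itga1 stood at 333 ± 80.0 CPM (SD, n = 7) in endothelial and 307 ± 24.0 CPM in smooth muscle cells, against 94.6 ± 14.8 in fibroblasts and 7.39 ± 5.65 in macrophages. Endothelial and smooth muscle cells were not told apart (-0.20 ± 0.19 log2, edgeR adjusted p = 0.382). Pelo and Gm49395 overlap Itga1 on the same strand, so its counts may hold their reads. Itga11 and Itga2 were highest in fibroblasts, at 16.5 to 34.0 and 14.5 to 30.1 CPM, and lay 3.61 ± 0.43 and 3.44 ± 0.48 (log2) above endothelial cells. Itga10 was highest in smooth muscle cells at a low level, 6.004 to 12.3 CPM, and lay 2.29 ± 0.31 above macrophages. Gm42957 overlaps it on the same strand.

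Of the alpha chains that bind the RGD motif, Itga8 had by far its highest level in smooth muscle cells. It had 2737, 2991 and 2306 CPM there in flox controls 1 to 3 and 2101, 2462, 2649 and 1907 CPM in knockouts 1 to 4. Every one of these libraries lay above the 10.2 to 101 CPM of fibroblasts, 8.71 to 94.1 CPM of endothelial cells and 8.17 to 78.6 CPM of macrophages. The difference from fibroblasts was 5.86 ± 0.29 (log2, edgeR adjusted p = 3.48e-15). Thinned to 1000 UMIs, 87.8% of 18429 smooth muscle cells had an Itga8 UMI, against 5.03% of fibroblasts, 2.71% of macrophages and 2.57% of endothelial cells.

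Itga5, Itgav and Itga2b bind the same motif and were less divided. Itga5, of the fibronectin receptor, ranged from 102 ± 26.8 CPM (SD, n = 7) in fibroblasts to 166 ± 35.7 CPM in macrophages. Macrophages lay 0.39 ± 0.14 (log2, edgeR adjusted p = 0.0157) above endothelial cells in the fit and in 4 of 7 libraries by CPM. Itgav, of the vitronectin receptor, was highest in fibroblasts (164 ± 23.0 CPM) and smooth muscle cells (143 ± 17.5 CPM), which did not differ beyond their spread (edgeR adjusted p = 0.455). Itga2b, the platelet chain, had at most 4.86 CPM in any library of the 4 classes.

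Of the main classes, Itga9 was highest in smooth muscle cells and Itga4 in macrophages. Itga9 ran from 485 to 806 CPM in smooth muscle cells, 285 to 445 in endothelial cells, 116 to 149 in fibroblasts and 59.1 to 155 in macrophages. Smooth muscle cells lay 1.23 ± 0.14 (log2) above endothelial cells in 7 of 7 libraries (edgeR adjusted p = 2.19e-08), and endothelial cells 1.14 ± 0.14 above fibroblasts (edgeR adjusted p = 9.43e-08). Between fibroblasts and macrophages the difference was 0.27 ± 0.13 (edgeR adjusted p = 0.0747). Itga4, whose integrin binds VCAM1 on endothelium, had 67.5 to 159.6 CPM in macrophages and 6.18 to 21.1 CPM in smooth muscle cells, the next class (difference 3.31 ± 0.26).

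Among the leukocyte alpha chains, Itgam was by a wide margin highest in macrophages of the 4 main classes. Itgam, of complement receptor 3, had 428, 614 and 373 CPM there in flox controls and 746, 497, 541 and 457 CPM in knockouts. The genotypes overlapped, and endothelial cells, the next class, had 0 to 9.497 CPM (difference 7.02 ± 0.39 log2, edgeR adjusted p = 3.18e-14). Gm49368 overlaps Itgam on the same strand. Itgax, of complement receptor 4, ran from 1.79 to 49.4 CPM in macrophages and lay 1.99 ± 0.55 above endothelial cells. Itgal had at most 23.4 CPM in endothelial cells and 12.8 CPM in macrophages, which did not differ beyond their spread (edgeR adjusted p = 0.546). Itgae had at most 4.75 CPM and Itgad at most 1.12 CPM in the libraries of the 4 classes.

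Itgb1, the common beta chain, was read in all 4 classes and was highest in smooth muscle cells. Its values were 1678, 2171 and 2263 CPM (lowest, median and highest library) there and 1081, 1207 and 1456 CPM in endothelial cells. These ranges did not overlap, and the difference was 1.03 ± 0.08 (log2, edgeR adjusted p = 4.64e-11). Fibroblasts had 614 ± 57.5 CPM (SD, n = 7) and macrophages 505 ± 99.6 CPM. Itgb4, the beta chain of hemidesmosomes, had 119, 183 and 102 CPM in endothelial cells of flox controls and 199, 155, 157 and 146 CPM in those of knockouts, and at most 2.14 CPM in any library of the other 3 classes. Thinned to 1000 UMIs, 12.5% of endothelial cells had an Itgb4 UMI against 0.0806% of fibroblasts (33.9% and 0.490% before thinning, at median depths of 2810.5 and 5519.5 UMIs). Itgb2, the beta chain of leukocytes, ran from 361 to 585 CPM in macrophages and lay 5.82 ± 0.46 (log2) above endothelial cells.

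Itgb3 and Itgb5, partners of Itgav, were highest in smooth muscle cells, and Itgb6 and Itgb8, whose integrins activate latent transforming growth factor beta, had their highest mean in fibroblasts. Itgb3 had 36.2 to 88.2 CPM in smooth muscle cells and lay 2.41 ± 0.30 (log2) above endothelial cells. Itgb5 had 185 to 238 CPM in smooth muscle cells and 148 to 209.8 CPM in fibroblasts, a difference of 0.47 ± 0.14 (edgeR adjusted p = 0.00400) in the same direction in 7 of 7 libraries. With a stricter cell filter, which keeps 2076 of the smooth muscle cells, it was 0.21 (edgeR adjusted p = 0.178). Itgb8 stood at 17.8 ± 3.82 CPM (SD, n = 7) in fibroblasts and 13.8 ± 4.00 CPM in smooth muscle cells (edgeR adjusted p = 0.0941). Itgb6 had 3.09 to 4.93 CPM in fibroblasts and lay 1.14 ± 0.30 above macrophages. Itgb7, a chain of lymphocytes, had at most 5.60 CPM in any library of the 4 classes.

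The laminin alpha chains were divided among the classes, with Lama2 highest in fibroblasts, Lama4 read in fibroblasts and smooth muscle cells, Lama5 in endothelial and smooth muscle cells, and Lama3 in endothelial cells. Lama2, the alpha chain of the laminin of muscle and peripheral nerve, had 751, 733 and 608 CPM in fibroblasts of flox controls and 665, 629, 704 and 517 CPM in those of knockouts. Smooth muscle cells had 38.9 to 134 CPM, and the difference was 3.17 ± 0.24 (log2, edgeR adjusted p = 1.25e-11). The fibroblast markers in smooth muscle cells summed to 10.9% of their level in fibroblasts. The part of fibroblast RNA in this Lama2 level was not tested. Lama4 and Lama5 are the alpha chains of vascular basement membranes. Lama4 had 118 to 207 CPM in fibroblasts, 113 to 182 in smooth muscle cells and 41.4 to 158 in endothelial cells. The first 2 classes were not told apart (0.17 ± 0.13, edgeR adjusted p = 0.259), but passed with the stricter cell filter (0.35, edgeR adjusted p = 0.0481). Lama5 had 49.0 to 90.2 CPM in endothelial cells and 54.7 to 86.3 CPM in smooth muscle cells (-0.05 ± 0.23, edgeR adjusted p = 0.878), with at most 5.36 CPM in fibroblasts and macrophages. Lama3, an alpha chain known from epithelia, had 14.2 to 52.2 CPM in endothelial cells and at most 2.30 CPM elsewhere, a difference of 4.22 ± 0.32 from smooth muscle cells (edgeR adjusted p = 1.63e-11). Lama1 had 0 UMIs in endothelial cells and macrophages, which allows up to 0.568 and 0.155 CPM (3 UMIs of the summed total).

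Of the beta and gamma chains, Lamc1, shared by most laminins, and Lamb1 were highest in fibroblasts. Lamc1 had 263 to 394 CPM in fibroblasts, 132 to 188 in smooth muscle cells and 84.9 to 128 in endothelial cells, and fibroblasts lay 1.11 ± 0.12 (log2) above smooth muscle cells (edgeR adjusted p = 3.82e-09). Lamb1 had 60.03 to 121 CPM in fibroblasts, 5.99 to 30.3 CPM in endothelial cells (2.65 ± 0.31 lower on the log2 scale) and at most 2.88 CPM in smooth muscle cells. Lamb2 stood at 201 ± 34.6 CPM (SD, n = 7) in fibroblasts and 168 ± 34.2 CPM in smooth muscle cells, which did not differ beyond their spread (edgeR adjusted p = 0.328). Lamc3 had 16.9 to 39.2 CPM in smooth muscle cells and 2.26 to 43.6 CPM in fibroblasts. Its difference of 0.77 ± 0.28 (edgeR adjusted p = 0.0167) was present in 4 of 7 libraries by CPM, and did not pass without flox control 2 (0.50) or without knockout 2 (0.67). Lamb3 had at most 3.54 CPM, and 4930570N18Rik overlaps it on the same strand.

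Smaller classes added cell types in which some of these genes were high. Their values are given over the summed UMIs of all libraries, with exact Poisson 95% intervals that cover counting error only, and were not tested. In 75 Schwann cells, which lay down a basement membrane around nerve fibres, Itga1 had 755 CPM (631 to 896), Itgb4 255 CPM (186 to 343), Itgb8 249.7 CPM (181 to 336), Lama2 459 CPM (363 to 572), Lama4 406 CPM (317 to 514) and Lamb1 331 CPM (251 to 429). In 118 monocytes, 63 of them from knockout 1, Itgb2 had 1077 CPM (995.4 to 1163), Itgam 817 CPM (746 to 892) and Itga4 663 CPM (599.9 to 732). In 219 neutrophils, 126 of them from knockout 1, Itgb2 had 1237 CPM (1129.6 to 1352), Itgam 869.9 CPM (780.0 to 967) and Itgal 824 CPM (737 to 919).

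Itgal is a chain of LFA-1, through which lymphocytes bind other cells, and Itgb7 pairs with Itga4 in lymphocytes that home to the gut. In 202 T cells Itgal had 585 CPM (525 to 651), Itgb1 455 CPM (402 to 513), Itga4 419 CPM (368 to 475) and Itgb7 353.6 CPM (307 to 405). In 140 B cells Itga4 had 333 CPM (269 to 407), Itgal 84.1 CPM (53.9 to 125) and Lamb3 119 CPM (82.5 to 166), where the overlapping gene leaves the source of the Lamb3 reads uncertain. In 257 mast cells Itgb1 had 309 CPM (276 to 345), Itga9 292 CPM (259.6 to 327), Itgb7 174 CPM (149 to 202) and Itga2b 59.6 CPM (45.5 to 76.7). In 68 lymphatic endothelial cells, 31 of them from flox control 2 and 0 from flox control 3 and knockout 4, Lama4 had 640.1 CPM (558 to 731). In the other endothelial cells its mean over libraries, a different measure, was 80.8 ± 39.3 CPM (SD, n = 7). The lymphatic cells had 951 CPM of Itgb1 (851 to 1060.4) and 439 CPM (372 to 515) of Itga9, which is needed for lymphatic valves. In 302 erythroid cells, 163 of them from knockout 4, Itgb1 had 215 CPM (187 to 246), Lama2 79.4 CPM (62.9 to 99.0) and Itga9 76.4 CPM (60.2 to 95.6). These were not high values. Mean CPM in macrophages of flox controls and knockouts was 537 and 481 for Itgb1 and 110 and 109 for Itga9. Lama2 had means of 698 and 629 CPM in fibroblasts. The part of free RNA of other cells in the erythroid values was not tested. The Schwann cell genes, Itgb7 in T cells, Itga2b in mast cells and the thinned shares of Itgb7 and Itgal were chosen after their values were seen.

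**Figure D2:**
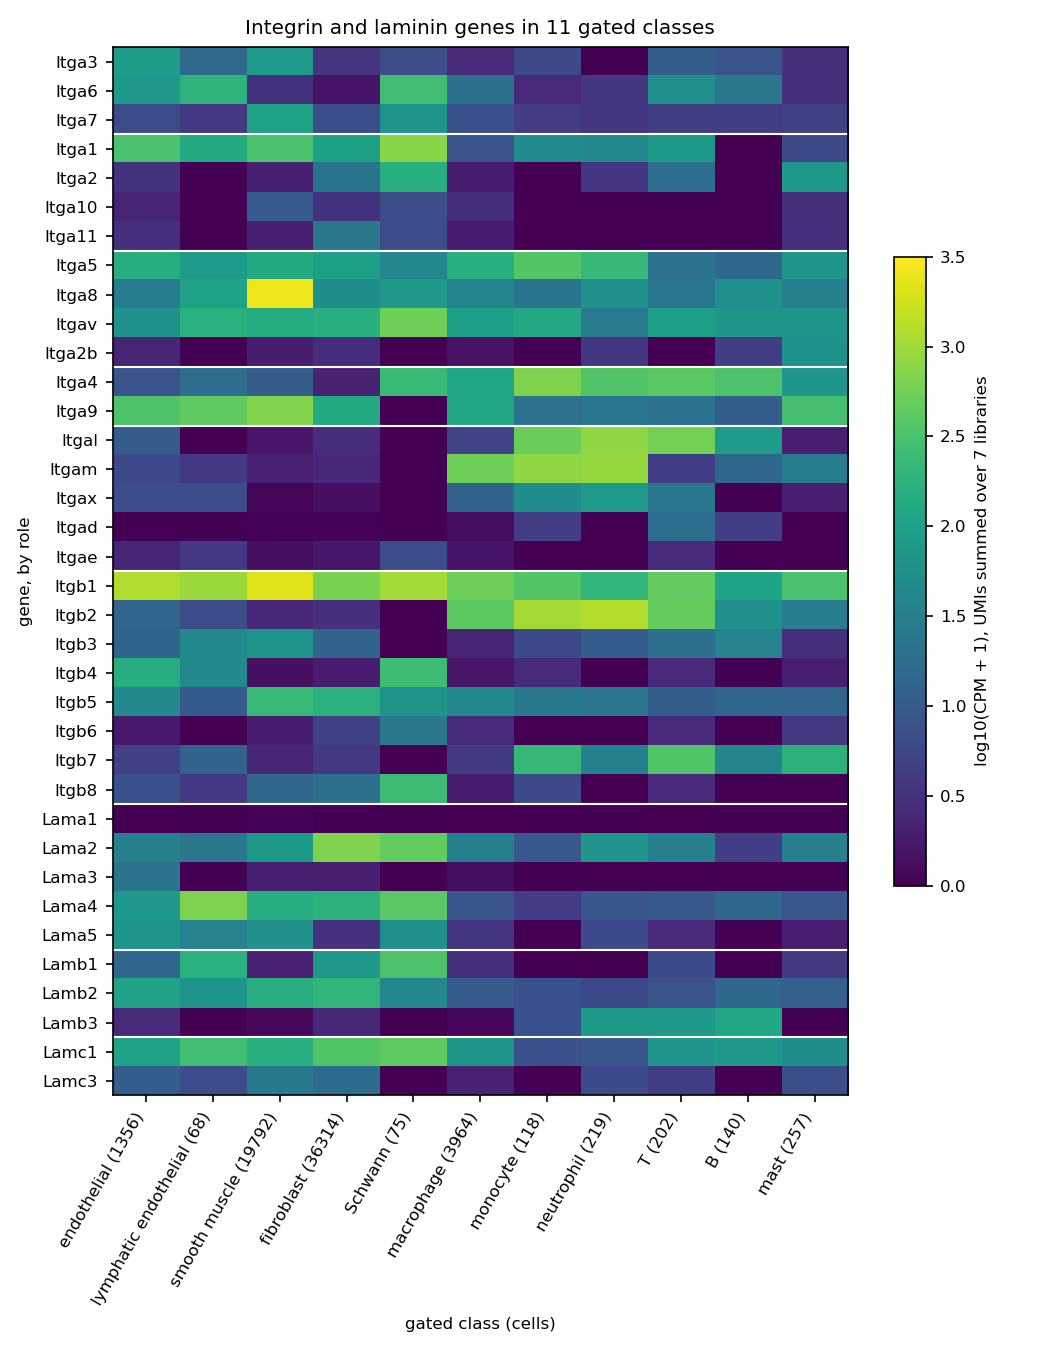
Levels of 36 genes in 11 classes from UMIs summed over 7 libraries, with the number of cells in brackets. Genes stand in order of role with white lines between roles, and colour is log10(CPM + 1). Itga8 is brightest in smooth muscle cells, and leukocyte classes hold the high values of Itgal, Itgam and Itgb2.

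The design asks whether the endothelial knockout differs from its flox control, and 0 of the tested integrin and laminin genes passed in any of the 4 classes. Enough counts were present for 17 genes in endothelial cells, 29 in smooth muscle cells, 35 in fibroblasts and 18 in macrophages. Of all 7741, 12922, 15391 and 10378 genes tested in these classes, 0% passed (edgeR, adjusted p under 0.05). At an unadjusted p under 0.05 were 4, 1, 3 and 6 of the integrin and laminin genes, beside 5.46%, 4.98%, 4.48% and 7.84% of all genes. DESeq2 also called 0 of them in each class, where it called 0, 9, 8 and 2 of all genes tested. Their smallest DESeq2 adjusted p was 0.0547, in macrophages. The groups did not overlap for 1, 4, 5 and 2 of them, beside 7.14%, 5.46%, 4.82% and 8.66% of all genes. All knockouts lay above all flox controls for 1, 1, 1 and 0 of them, beside 2.75%, 1.54%, 1.99% and 4.34% of all genes, and below for 0, 3, 4 and 2, beside 4.39%, 3.92%, 2.83% and 4.33%. The estimate was higher in knockouts for 8 of 17, 9 of 29, 10 of 35 and 4 of 18, beside 48.9%, 48.9%, 48.6% and 49.3% of all genes. The median log2 fold change of knockout over flox control was -0.21, -0.14, -0.14 and -0.45, with a median of all genes no further from 0 than -0.01. With no filter on low counts, edgeR called Itga8 and Lama2 in endothelial cells, Lama2 in macrophages and 0 of these genes in smooth muscle cells and fibroblasts. It then tested 35 of them in endothelial cells, 36 in macrophages and 37 each in smooth muscle cells and fibroblasts. That setting also called other genes, with 0.35% of all genes in endothelial cells, 0.311% in macrophages, 0.032% in smooth muscle cells and 0% in fibroblasts.

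**Figure D3:**
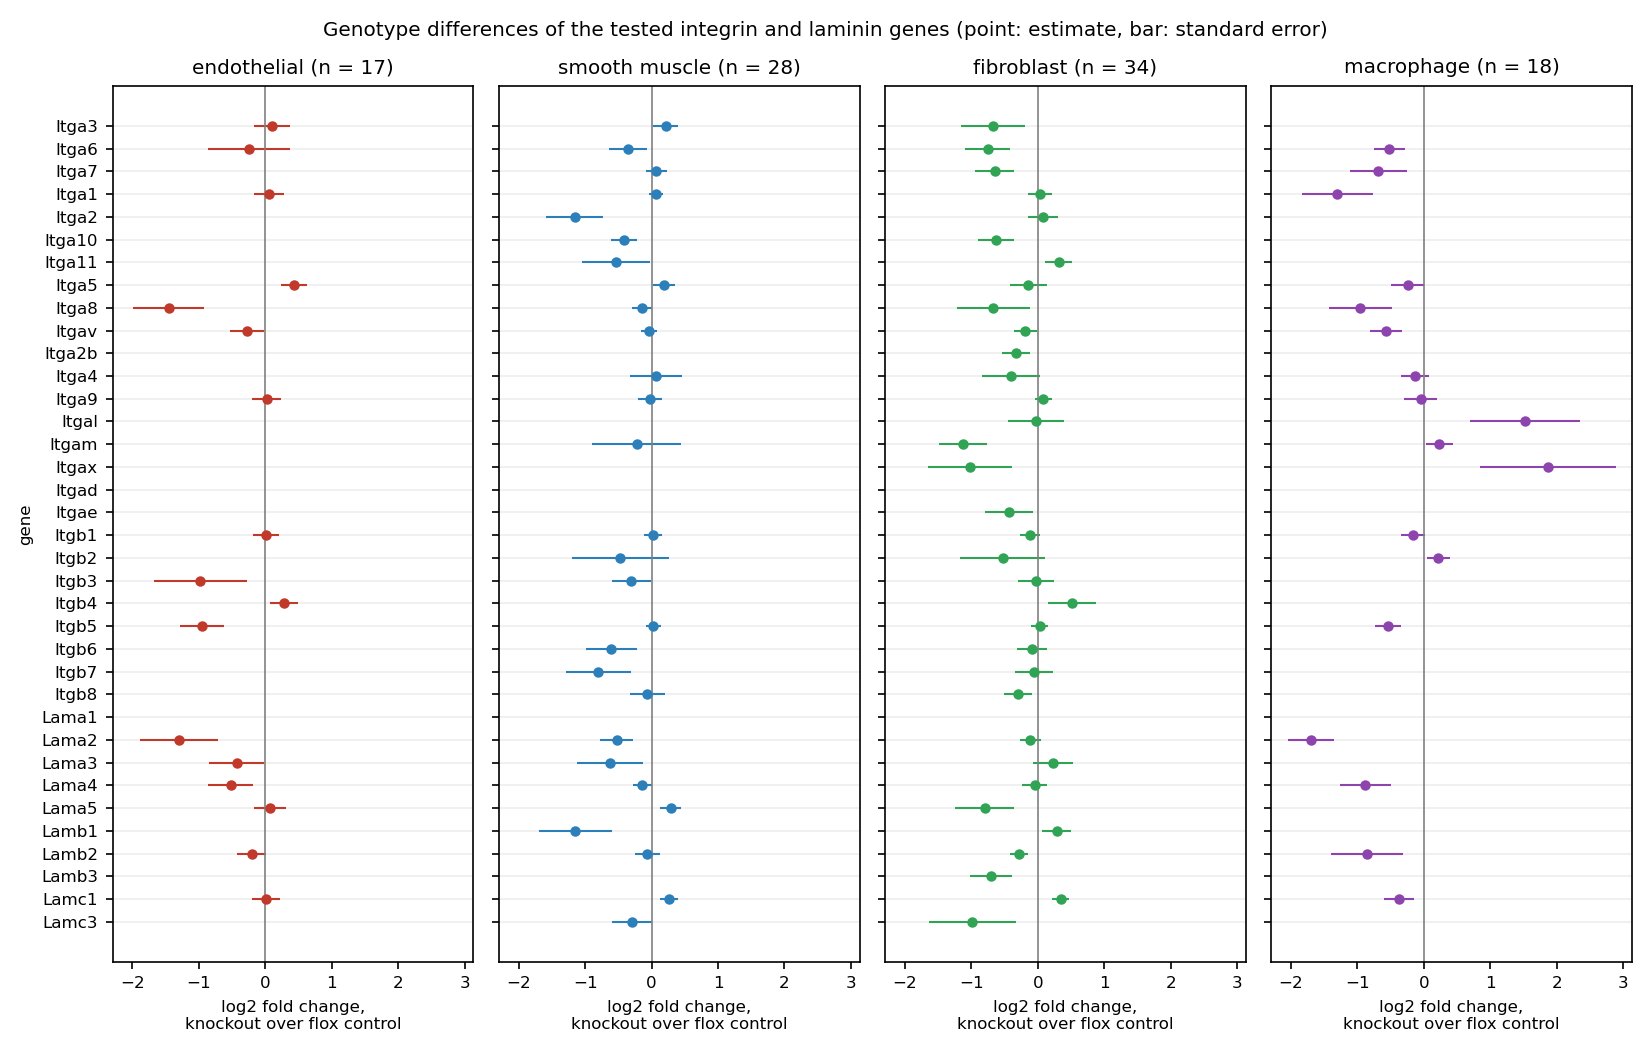
Log2 fold changes of knockout over flox control for the tested genes in each class, with points for the estimate and bars for the SE. In macrophages 14 of 18 points lie below 0 and in fibroblasts 25 of 34, and 0 of the genes passed the test.

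In endothelial cells the smallest p belonged to Itgb5, Itga8 and Itga5. Itgb5 had 87.2, 73.7 and 29.1 CPM in flox controls and 14.2, 29.1, 33.6 and 40.3 CPM in knockouts. Flox controls 1 and 2 lay above all knockouts and flox control 3 among them (log2 fold change -0.96 ± 0.33, edgeR adjusted p = 0.835). Itga8 had 94.1, 32.9 and 53.4 CPM in flox controls and 9.497, 15.8, 42.5 and 8.71 CPM in knockouts, from 11 to 41 and 2 to 48 UMIs. Knockout 3 lay above flox control 2, and the other knockouts below all flox controls (-1.46 ± 0.53, edgeR adjusted p = 0.835). Without knockout 3 the fold change was -2.29 (edgeR adjusted p = 0.758), and over 13 alternative settings it lay between -2.29 and -0.91. With no filter on low counts Itga8 passed (-1.42 ± 0.33, edgeR adjusted p = 0.00811), at a similar fold change with a smaller SE. Lama2 had 133, 32.9 and 4.86 CPM in flox controls and 42.7, 13.3, 22.1 and 26.1 CPM in knockouts. Flox control 1 was the highest and flox control 3 the lowest of all libraries (-1.29 ± 0.59, edgeR adjusted p = 0.835, and -1.26 ± 0.31 with edgeR adjusted p = 0.0226 without the filter).

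Markers of other cell types stood beside these values. The smooth muscle markers summed to 733 to 1326 CPM in endothelial cells of flox controls and 462 to 709 CPM in those of knockouts, with 8 of 8 lower in knockouts by the group means and 0 at 0 UMIs. The fibroblast markers summed to 952 to 2085 against 609 to 1311 CPM, with 9 of 9 lower and 0 at 0 UMIs. Over all libraries these sums were 2.56% and 2.90% of those in smooth muscle cells and in fibroblasts. Their part in the endothelial values of Itga8, Itgb5 and Lama2 was not tested. In such sums, fewer cells or less free RNA of another type and fewer transcripts per cell cannot be told apart.

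Itga5 was the endothelial gene of these families whose groups did not overlap. It had 142, 109.7 and 126 CPM in flox controls and 180.4, 150.3, 182 and 145 CPM in knockouts (0.44 ± 0.19, edgeR adjusted p = 0.835). The highest flox control and the lowest knockout were close to each other. Itgb1 had 1179, 1456 and 1112 CPM in flox controls and 1235, 1207, 1364 and 1081 CPM in knockouts (0.01 ± 0.20). Itga9 had 321, 370.0 and 335 against 285, 287, 445 and 311 CPM (0.02 ± 0.22), with knockout 3 apart from the other knockouts. For Itga1 and Itgb4 the fold changes were 0.05 ± 0.23 and 0.28 ± 0.22, with overlap. Itga6 had 158, 109.7 and 63.1 CPM in flox controls and 280.2, 89.7, 73.5 and 18.0 CPM in knockouts (-0.25 ± 0.62). Its highest and lowest libraries were both knockouts, numbers 1 and 4.

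In smooth muscle cells the smallest p belonged to Itga2, Lama2 and Itga10. Itga2 was low, with 2.08, 1.27 and 1.23 CPM in flox controls and 0.535, 0.308, 0.985 and 0.659 CPM in knockouts, from 8 to 29 and 1 to 29 UMIs (log2 fold change -1.16 ± 0.43, edgeR adjusted p = 0.905). All knockouts lay below all flox controls. Lama2 had 134, 91.0 and 55.9 CPM in flox controls and 58.4, 68.2, 72.3 and 38.9 CPM in knockouts. Flox control 3 lay below 3 of 4 knockouts, so the groups overlapped (-0.52 ± 0.25, edgeR adjusted p = 0.905). Itga10 had 10.1, 12.3 and 11.7 CPM in flox controls and 6.004, 9.84, 8.22 and 8.56 CPM in knockouts, without overlap (-0.42 ± 0.20, edgeR adjusted p = 0.905). The genes with the highest levels were close between genotypes. Their fold changes were -0.15 ± 0.15 for Itga8, 0.02 ± 0.14 for Itgb1, -0.03 ± 0.18 for Itga9, 0.07 ± 0.10 for Itga1, 0.03 ± 0.11 for Itgb5 and -0.07 ± 0.19 for Lamb2.

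Lama5 and Itga6 were the other smooth muscle genes without overlap. Lama5 had 55.6, 54.7 and 55.3 CPM in flox controls and 59.5, 56.1, 59.2 and 86.3 CPM in knockouts, where knockout 4, the library with few smooth muscle cells, was highest (0.29 ± 0.15, edgeR adjusted p = 0.905). Itga6 had 2.52, 2.36 and 3.23 against 1.55, 2.15, 2.34 and 1.32 CPM (-0.36 ± 0.29). In these cells 8 of 9 fibroblast markers were lower in knockouts by the group means, with sums of 3547 to 5159 against 3233 to 4472 CPM and 0 markers at 0 UMIs. Over all libraries the sum was 10.9% of that in fibroblasts. The part of these markers' cells in the smooth muscle values of Lama2 and Itga2 was not tested.

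In fibroblasts the smallest p belonged to Itgam, Lamc1 and Itga10. Lamc1 had 321, 341 and 263 CPM in flox controls and 377, 371, 388 and 394 CPM in knockouts. All knockouts lay above all flox controls (log2 fold change 0.35 ± 0.13, edgeR adjusted p = 0.946). For chains that can join it in a trimer the fold changes were 0.28 ± 0.22 for Lamb1, -0.28 ± 0.14 for Lamb2, -0.11 ± 0.16 for Lama2 and -0.05 ± 0.19 for Lama4. Itgam had 2.82, 1.97 and 1.91 CPM in flox controls and 0.822, 0.713, 0.726 and 1.85 CPM in knockouts (-1.13 ± 0.36, edgeR adjusted p = 0.946). Knockout 4 lay just below the flox controls and the other knockouts well below. The macrophage markers summed to 11.5 to 84.5 CPM in flox control fibroblasts and 14.1 to 50.8 CPM in knockout fibroblasts, with 10 of 10 lower in knockouts by the group means and 0 at 0 UMIs. The monocyte markers went the other way, with sums of 29.9 to 68.3 against 52.4 to 182 CPM and 1 of 4 lower in knockouts. The part of either list's cells in the Itgam values was not tested. Itga10 had 3.51, 2.17 and 3.22 CPM in flox controls and 2.11, 2.31, 1.48 and 1.49 CPM in knockouts, with overlap (-0.63 ± 0.27). The smooth muscle markers summed to 940.1, 211 and 510.0 CPM in flox control fibroblasts and 321, 209, 398 and 130.4 CPM in knockout fibroblasts, with 8 of 8 lower in knockouts by the group means and 0 at 0 UMIs. Their part in the Itga10 values was not tested.

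Lamb3, Itga6 and Itga2b were the other fibroblast genes without overlap, all lower in knockouts and all low. Lamb3 had 1.85, 1.803 and 2.83 against 1.23, 1.40, 0.820 and 1.72 CPM, Itga6 0.939, 0.560 and 1.07 against 0.466, 0.492, 0.505 and 0.452 CPM, and Itga2b 2.03, 2.24 and 2.14 against 1.94, 1.62, 1.48 and 1.63 CPM. Itgb1 and Itgb5, among the highest in fibroblasts, had fold changes of -0.11 ± 0.14 and 0.03 ± 0.13.

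In macrophages the smallest p belonged to Lama2, Itgb5 and Itga1. Lama2 had 81.1, 42.5 and 25.3 CPM in flox controls and 10.6, 24.1, 15.1 and 11.3 CPM in knockouts. All knockouts lay below all flox controls, with knockout 2 close to flox control 3 (log2 fold change -1.70 ± 0.35, edgeR adjusted p = 0.568). With no filter on low counts it passed (-1.67 ± 0.26, edgeR adjusted p = 1.72e-04), at a similar fold change with a smaller SE. Without flox control 1, the library with the highest level, the fold change was -1.20 (edgeR adjusted p = 1.000). Itgb5 had 64.7, 48.3 and 57.4 CPM in flox controls and 43.1, 42.4, 28.7 and 41.6 CPM in knockouts, without overlap (-0.54 ± 0.20, edgeR adjusted p = 0.623). Itga1 had 17.9, 5.29 and 11.8 against 1.12, 3.72, 6.47 and 5.44 CPM, with overlap (-1.30 ± 0.53, and -0.68 without flox control 1). The integrins with the highest levels in macrophages had fold changes of 0.23 ± 0.20 for Itgam, -0.16 ± 0.18 for Itgb1, 0.22 ± 0.17 for Itgb2, -0.25 ± 0.25 for Itga5, -0.14 ± 0.21 for Itga4 and -0.05 ± 0.25 for Itga9.

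Markers of stromal cells were lower in macrophages of knockouts by the group means. The fibroblast markers summed to 1943, 493 and 837 CPM in flox controls and 456, 549, 340.0 and 907 CPM in knockouts, with 9 of 9 lower and 0 at 0 UMIs. The smooth muscle markers summed to 1054, 279.9 and 317 against 237, 256, 386 and 120.2 CPM, with 8 of 8 lower and 0 at 0 UMIs. Flox control 1 was highest for both lists and for Lama2. Knockout 4 had higher fibroblast markers than flox controls 2 and 3, but lower Lama2 than both. Over all libraries these sums were 2.11% and 1.33% of those in fibroblasts and in smooth muscle cells. Their part in the macrophage values of Lama2, Itgb5 and Itga1 was not tested.

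**Figure D4:**
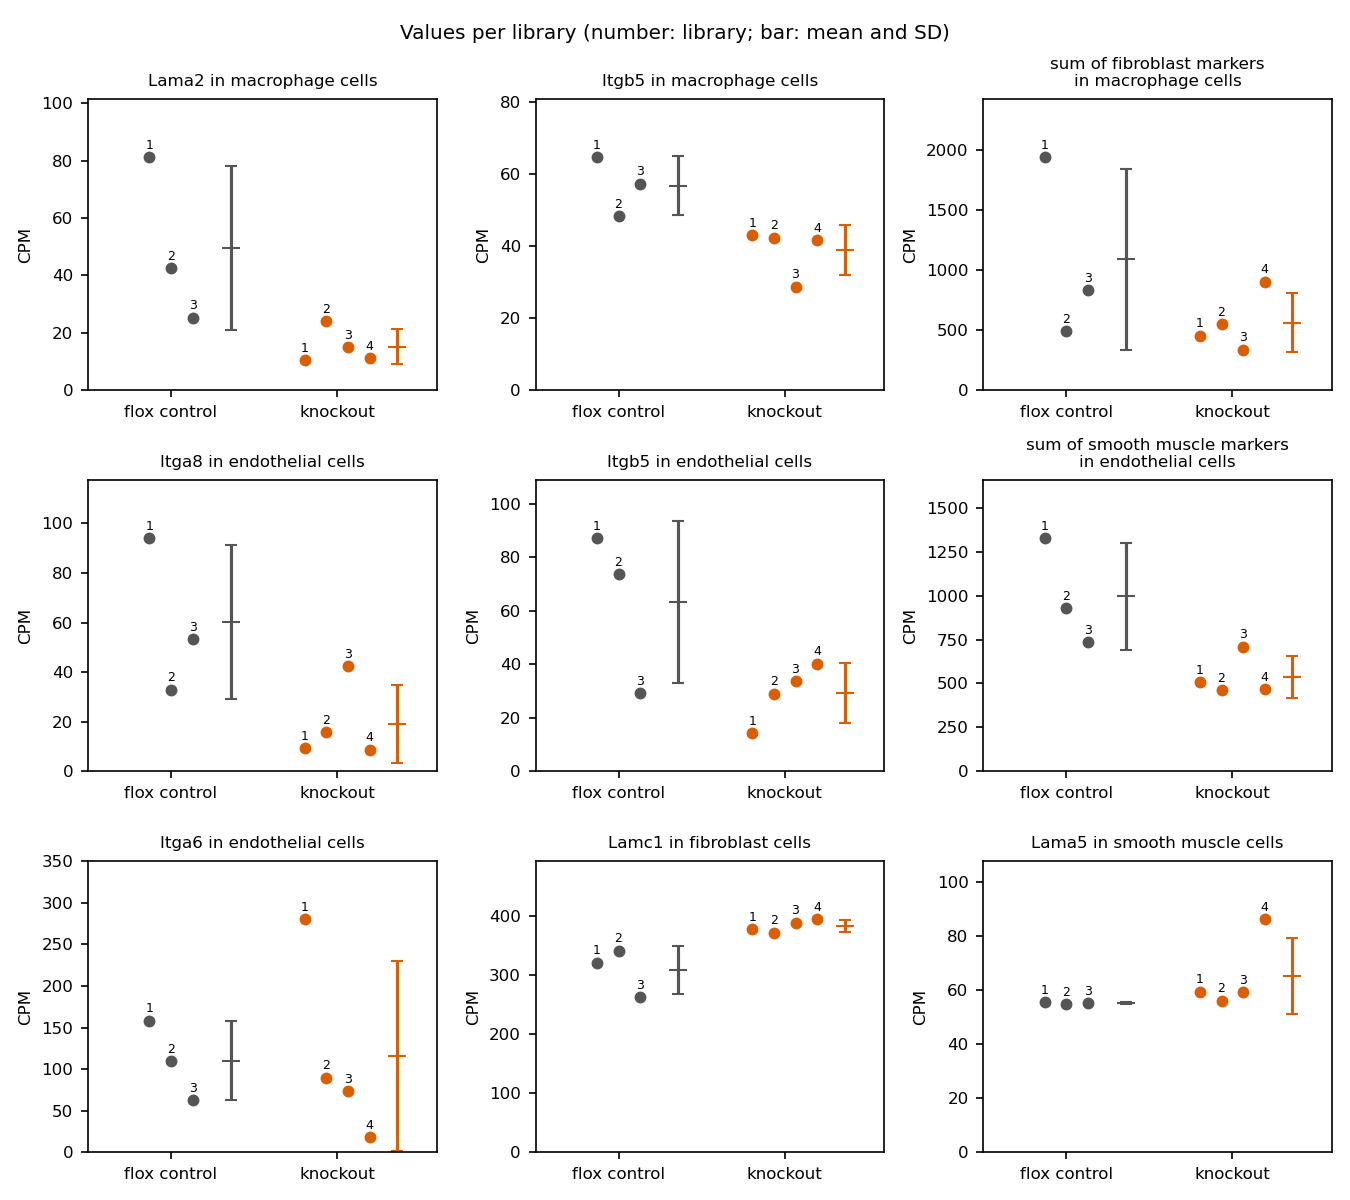
Values per library in CPM for Lama2, Itgb5, Itga8, Itga6, Lamc1 and Lama5 in the classes named above each plot and for 2 summed marker lists. Numbers are libraries, and the bars beside the points give the mean and SD of each genotype. In macrophages Lama2 and the summed fibroblast markers are both highest in flox control 1 (81.1 and 1943 CPM). In knockout 4 the markers lie above those of flox controls 2 and 3 (907 against 493 and 837 CPM), and Lama2 lies below.

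The fold change between genotypes varied with the length of the gene on the genome. Across all genes tested the Spearman correlation between gene span and the log2 fold change was -0.35 in endothelial cells, -0.31 in smooth muscle cells, -0.23 in fibroblasts and -0.33 in macrophages, a description over genes that share the same 7 libraries. In macrophages 82.2% of the 572 genes over 200 kb were lower in knockouts, against 36.5% of those under 20 kb. Of the tested integrin and laminin genes over 100 kb, 8 of 8 were lower in macrophages (median -0.71), beside 75.5% of all genes of that span, 6 of 9 in endothelial cells (-0.43), beside 73.3%, 8 of 11 in smooth muscle cells (-0.15), beside 77.3%, and 6 of 12 in fibroblasts (-0.01), beside 70.0%. Up to 50 kb, 12 of 13 were lower in fibroblasts (-0.33), beside 45.2% of all genes of that span. In endothelial cells 1 of 6 were lower (0.09), beside 42.3%. In smooth muscle cells these were 4 of 9 (0.02), beside 43.0%, and in macrophages 4 of 7 (-0.16), beside 42.5%. From 50 to 100 kb, 2 of 2 were lower in endothelial and 8 of 9 in smooth muscle cells, beside 63.4% and 63.6%. For fibroblasts and macrophages these counts were 7 of 10 and 2 of 3, beside 61.6% and 63.7%. The smooth muscle and macrophage markers were also lower in knockout fibroblasts by the group means, 8 of 8 and 10 of 10, against 1 of 4 monocyte markers. Lama2 spans 639.7 kb (chr10:26980036-27619758, minus strand, GRCm38), Itga8 195 kb (chr2:12106632-12301922, minus strand) and Itgb5 119.7 kb (chr16:33829665-33949338, plus strand), while Itga5 spans 22.5 kb (chr15:103344286-103366763, minus strand). The part of gene span and that of other cell types in these values were not tested.

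Whether the genotype effect differed between endothelial cells and another class was tested with an interaction term, blocked by library. It passed for 0 of 24 genes against smooth muscle cells, 0 of 34 against fibroblasts and 0 of 26 against macrophages, and for 0% of all 10949, 13672 and 10916 genes (edgeR, adjusted p under 0.05). At an unadjusted p under 0.05 were 2, 1 and 2 of the integrin and laminin genes, beside 3.11%, 3.68% and 3.14% of all genes. For Itga8 against smooth muscle cells the difference was -1.36 ± 0.47 (log2, endothelial minus smooth muscle, edgeR adjusted p = 1). For Itgb5 it was -0.93 ± 0.36 against smooth muscle cells and -0.93 ± 0.36 against fibroblasts. For Itga5 and Itga1 it was 0.59 ± 0.26 and 1.12 ± 0.51 against macrophages.

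Genes that work with integrins and laminins were taken from 4 lists, and 0 of them passed in any class with a background of 0% (edgeR). The lists hold 14 other basement membrane genes, 31 integrin ligands, 38 genes of integrin activation and adhesion complexes, and 9 laminin receptors other than integrins. In macrophages 11 of 13 tested basement membrane genes had a lower estimate in knockouts (median -0.94, 6 at an unadjusted p under 0.05), and 14 of 19 integrin ligands (median -0.53, 7 at an unadjusted p under 0.05). Of all genes tested in macrophages 7.84% had such a p, and 49.3% had a higher estimate in knockouts. In the same cells 9 of 9 fibroblast markers and 8 of 8 smooth muscle markers were lower in knockouts by the group means, and their part in these lists was not tested. Basement membrane genes had a lower estimate in 9 of 11 cases in endothelial cells, 12 of 14 in fibroblasts and 7 of 14 in smooth muscle cells. For integrin ligands these counts were 14 of 20, 13 of 25 and 12 of 21. Of all genes, 48.9%, 48.6% and 48.9% had a higher estimate in these classes. The medians of the other lists and classes lay between -0.18 and 0.15. In macrophages the log2 fold change was -1.53 ± 0.36 for Col4a5, a collagen IV chain, -1.55 ± 0.53 for Hspg2, which encodes perlecan, and -1.50 ± 0.41 and -1.24 ± 0.36 for the fibrillar collagen genes Col3a1 and Col1a1, both also fibroblast markers of the gate. Flox control 1 was the highest library for each of these genes. Col4a5 had 21.8, 15.9 and 10.1 CPM in flox controls and 6.16, 3.44, 8.86 and 3.89 CPM in knockouts. Hspg2 had 32.9, 6.04 and 6.75 CPM in flox controls and 4.48, 4.58, 6.47 and 5.83 CPM in knockouts. Without flox control 1 the fold changes were -0.19 for Hspg2, -0.78 for Col3a1, -0.62 for Col1a1 and -1.29 for Col4a5.

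In endothelial cells the log2 fold change was -1.08 ± 0.31 for Col3a1, whose groups did not overlap (-0.46 without flox control 1), 0.38 ± 0.18 for Cd151, a tetraspanin that binds laminin receptors, and 0.69 ± 0.31 for Sgcb, a sarcoglycan. In smooth muscle cells it was 0.36 ± 0.12 for Cd151, without overlap, -1.15 ± 0.42 for Fbln1, which encodes fibulin-1 (-0.54 without flox control 1), and 0.66 ± 0.27 for Thbs1, which encodes thrombospondin-1. In fibroblasts it was -0.42 ± 0.15 for Tns3, a tensin, without overlap, -0.76 ± 0.27 for Tgfb1 and -0.61 ± 0.26 for Dmd, which encodes dystrophin.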

How the data were processed

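The authors deposited UMI counts per gene and cell barcode for 7 libraries (BD Rhapsody), with 6167 to 13792 barcodes and 22646246 to 73102988 UMIs each. CASAVA 1.8, STARsolo 2.7.10a, Seurat and mm10 are named per the submitters' processing notes; their roles were not stated, and the gene annotation was not given in the sources used here. Cells with at least 200 genes and at most 25% mitochondrial counts were kept, and doublets called by Scrublet (scanpy 1.11.5, expected rate 0.06) were removed, 0.869% to 2.07% per library. A cell joined the class with the highest marker score if at least 3 of its markers had a UMI and the score led by 0.1. Counts were summed per class and library with at least 20 cells, and tested over all genes with edgeR 4.0.16 (R 4.3.3; quasi-likelihood, TMM, filterByExpr, adjusted p under 0.05), with DESeq2 1.42.0 as an alternative. The genotype test was also run on simulated counts for endothelial cells and macrophages, and the other tests were not. Gene spans come from GENCODE vM21 (GRCm38). The genes, lists and tests were chosen with earlier results of these data known. Named with values are, per main class, the 6 genes with the highest mean CPM and the 3 with the smallest genotype p, the 3 highest in small classes, and up to 2 genes per list; other genes are given by range, and those without overlap were added after their values were seen. The label of flox control 2 carries conflicting replicate numbers. A gene of the set enters the counts but is not reported here.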

Additional observations from a re-analysis of the deposited data

Results flagged for a closer look

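In 3 of 34 groups of 4 knockout libraries, 1 library stood far from the other 3 relative to their range, and chance gives this in about 1 in 20 groups. Itga9 in endothelial cells had 445 CPM in knockout 3 and 285 to 311 CPM in the other knockouts. Itgam in fibroblasts had 1.85 CPM in knockout 4 and 0.713 to 0.822 CPM in the others. Itgb5 in macrophages had 28.7 CPM in knockout 3 and 41.6 to 43.1 CPM in the others.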

How the results depend on the processing

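The count of integrin and laminin genes called between genotypes was 0 in each of the 4 classes under DESeq2, DESeq2 size factors in edgeR, a stricter marker gate and a stricter cell filter, and 0 to 0 when leaving out each library in turn. With no filter on low counts it was 2 of 35 in endothelial cells and 1 of 36 in macrophages, beside 0.35% and 0.311% of all genes. The labels tie replicate numbers to no shared animal or batch, so the fits carry no block. Of 12 same-numbered deviations, 6 correlated above 0.1 (-0.125 to 0.227), which does not settle whether the numbers mark pairs. Among knockouts 1 to 3, the same-numbered one was the best partner of a flox control in 3 of 3 pairs in smooth muscle cells. Over the 4 classes this held in 8 of 12, where an unrelated number would be the best of 3 candidates in 1 of 3 pairs. The 12 are the same 3 pairs of libraries seen in 4 classes, so they are not independent. The number of flox control 2 is itself uncertain, since its label carries conflicting replicate numbers. With the replicate block on libraries 1 to 3, the count was 0 in each class, and over all genes it was 0 in endothelial cells, 3 in smooth muscle cells, 7 in fibroblasts and 1 in macrophages. The interaction counts stayed at 0. Of the differences between a gene's highest and next class, 331 of 344 values under alternatives kept their direction and side of the threshold. The sign was reversed with the stricter cell filter for Lama5 (0.0647), Itga3 (0.11) and Itga1 (0.0743) between endothelial and smooth muscle cells and for Itgb8 between fibroblasts and smooth muscle cells (-0.34). It was reversed for Itgb7 between macrophages and fibroblasts with no filter on low counts (-0.13), with the stricter gate (-0.21) and without knockout 1. Leaving out each library gave -0.0862 to 0.129 for Itgb7, -0.169 to 0.10 for Lama5 (reversed without knockout 4) and -0.44 to 0.653 for Itgal between endothelial cells and macrophages (reversed without knockout 4). None of these had passed, and the cause was not tested. For the genes of the related lists each library was left out after the data were seen, and the sign was reversed for Col1a1 in endothelial cells (-0.81, and -1.21 to 0.28 when leaving out each library, reversed without flox control 1). Of the 37 genes, 20 in endothelial cells, 19 in macrophages, 8 in smooth muscle cells and 2 in fibroblasts had too few counts for a test between genotypes.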
